A study of Eriobotrya japonica with 9 samples.

Results

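*EjJAZ5* (Ej00000519), *EjJAZ6* (Ej00000974) and *EjJAZ7* (Ej00029198) are 3 short genes of the JAZ subfamily in loquat (*Eriobotrya japonica*), an evergreen fruit tree of the Rosaceae family. They were chosen because the study names them as duplicates of one another, with *EjJAZ5* and *EjJAZ6* as a tandem pair and *EjJAZ5* and *EjJAZ7* as a segmental pair. The study places *EjJAZ5* and *EjJAZ6* on a fragment outside the chromosomes. It proposes that errors in the gene annotation may explain this and leaves the question to further experiments. The 3 genes make up 3 of the 16 *EjJAZ* genes, 3 of the 26 *EjTIFY* genes and 3 of the 43996 genes in the deposited expression table. RNA was sequenced from leaves of seedlings in 3 groups of 3 libraries, all sampled on day 10. The watered controls are called CK, the plants watered first and then given 200 mmol/L NaCl are called ST, and the plants whose roots were irrigated with 150 µmol/L melatonin ahead of that NaCl treatment are called MTST. The plants came from seeds collected in Mengzi and were raised by tissue culture before they were moved outdoors. The sources used here give neither the age of the seedlings nor whether a library came from 1 plant or several.

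JAZ proteins are repressors of the jasmonate response. When the active hormone, jasmonoyl-isoleucine, accumulates after wounding or stress, the receptor COI1 binds JAZ proteins and they are broken down by the proteasome, which frees MYC2 and related transcription factors. In *Arabidopsis thaliana*, many *JAZ* genes are themselves switched on by these factors, so that jasmonate signaling renews its own repressors. Melatonin is an indoleamine made by plants as well as animals and is often applied to crops before a stress. In the deposited annotation the 3 genes carry identical GO terms, among them transcription corepressor activity, response to wounding and regulation of the jasmonic acid mediated signaling pathway, and no KEGG map. The same complete set of terms is carried by 9 genes of the table, which are these 3, *EjJAZ11* to *EjJAZ14*, *EjTIFY1* and *EjTIFY2*, so the annotation does not separate the 3 genes from one another.

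Expression is given as TPM (transcript abundance corrected for gene length and scaled to the same total in every library), so that levels of different genes can be set side by side. The lengths recovered from the deposited values were 632 bases for *EjJAZ5*, 393 for *EjJAZ6* and 669 for *EjJAZ7*, beside a median of 1466. Whether the correction holds equally well for such short genes was not tested. The libraries held 13048770 to 14468499 counted reads. Genes of the photosynthesis maps, used as a check of the labelled tissue, held 12.0% to 13.6% of all TPM in CK, 6.84% to 7.64% in ST and 10.2% to 10.8% in MTST, and gave 27 to 40 of the 100 highest genes of each library. The 10 highest genes took 11.2% to 11.6% of all TPM in CK, 5.55% to 6.09% in ST and 9.34% to 10.3% in MTST. On TPM, the median log2 fold change of the 23641 tested genes was 0.41 for ST against CK, -0.22 for MTST against ST and 0.19 for MTST against CK. The changes of the 3 genes are therefore given both on TPM and after division of TPM by median-of-ratios factors, which brought these medians to 0.014, -0.0019 and 0.0086.

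The 3 duplicates were expressed at very different levels. *EjJAZ5* was the most abundant, *EjJAZ7* was intermediate and *EjJAZ6* was the weakest, and this order held in every library. In the controls, *EjJAZ5* supplied 85.4% ± 0.610 of the summed TPM of the 3 genes, *EjJAZ7* 13.01% ± 0.169 and *EjJAZ6* 1.61% ± 0.475 (SD, n = 3 each). Under salt stress these shares were 74.7% ± 2.79, 16.9% ± 2.15 and 8.37% ± 1.02, and with melatonin before salt they were 74.3% ± 4.04, 23.6% ± 4.002 and 2.07% ± 0.652. The summed level was 182 ± 56.3 TPM in CK, 145 ± 21.8 TPM in ST and 132 ± 39.3 TPM in MTST (SD, n = 3 each), and the libraries of the groups overlapped.

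**Figure D1:**
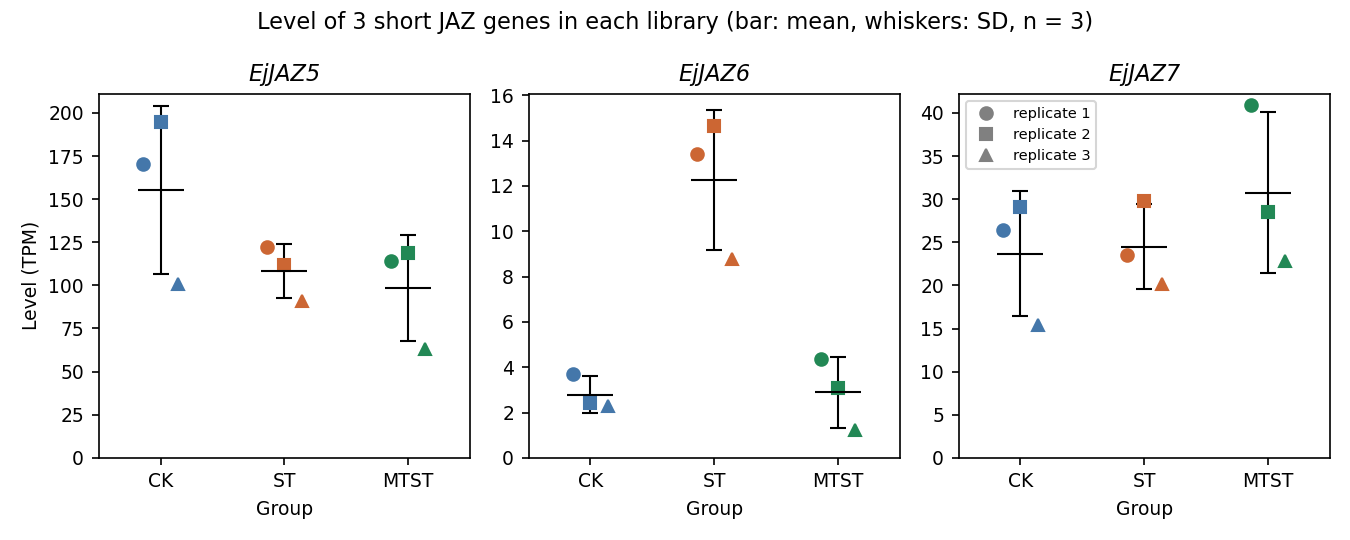
Level of *EjJAZ5*, *EjJAZ6* and *EjJAZ7* in TPM (vertical axes, each on its own scale from 0) in the CK, ST and MTST libraries, with points for libraries, a bar for the mean and whiskers for the SD (n = 3). The ST libraries of *EjJAZ6* lie between 8.77 and 14.6 TPM and all other libraries of this gene at 4.34 TPM or below, while the groups of *EjJAZ5* and of *EjJAZ7* overlap.

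*EjJAZ6*, the weakest of the 3 genes, rose under salt stress and was near the control level when melatonin was given first. Its level was 3.71, 2.40 and 2.27 TPM in the CK libraries, 13.4, 14.6 and 8.77 TPM in the ST libraries, and 4.34, 3.09 and 1.24 TPM in the MTST libraries. All ST libraries lay above all others, and the CK and MTST libraries overlapped. Over all tested genes, ST lay above CK without overlap in 56.0%, and MTST lay below ST without overlap in 40.9%. The share of genes with both was not counted. The means were 2.79 ± 0.796 TPM in CK, 12.3 ± 3.10 TPM in ST and 2.89 ± 1.56 TPM in MTST (SD, n = 3 each). These values rest on few reads, 14, 9 and 9 in CK, 47, 51 and 32 in ST, and 17, 12 and 5 in MTST, and 1 read was worth 0.249 to 0.287 TPM. Summed over the libraries of a group, the share of reads was 4.16 times as high in ST as in CK (exact 95% interval 2.81 to 6.33, 130 against 32 reads) and 0.249 times as high in MTST as in ST (0.166 to 0.366, 34 against 130 reads). For MTST against CK the ratio was 1.04 (0.621 to 1.74). These intervals cover counting error only.

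In the comparison of ST with CK, *EjJAZ6* was the only member of the group of 3 that passed the test on TPM. Its log2 fold change was 1.80 (SE 0.31, 95% interval 1.11 to 2.48, adjusted p = 6.4e-04 from limma). The median over all tested genes lay 1.39 below this value. Rises were common in this comparison, since 52.8% of the tested genes were upregulated and 10.6% downregulated by limma, and all ST libraries were higher than all CK libraries in 56.0% and lower in 11.3%. The size of the change was less common, as 1045 of the 12489 upregulated genes rose by at least as much as *EjJAZ6*. With median-of-ratios scaling, under which 22.8% of the genes were upregulated and 23.4% downregulated, the log2 fold change of *EjJAZ6* was 1.42 (adjusted p = 0.0042 from limma), and its ST libraries again lay above its CK libraries, as in 26.9% of the tested genes. The study itself reports *EjJAZ6* as upregulated under salt in the same experiment, by DESeq2 with its own thresholds, so this rise is not new.

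In the comparison of MTST with ST, *EjJAZ6* fell by 1.83 on the log2(TPM + 1) scale (SE 0.31, 95% interval -2.52 to -1.14, adjusted p = 0.0018 from limma), and neither *EjJAZ5* nor *EjJAZ7* passed the test. Of all tested genes, 29.8% were downregulated and 7.90% upregulated in this comparison, and in 40.9% all MTST libraries were lower than all ST libraries and in 11.1% they were higher, compared with 23.1% higher after median-of-ratios scaling. A fall at least as large was called in 430 genes. With median-of-ratios scaling, under which 13.7% of the genes were downregulated, 15.1% upregulated and 21.9% lower in MTST without overlap, the log2 fold change was -1.61 (adjusted p = 0.0043 from limma). Against CK, the MTST libraries of *EjJAZ6* gave a log2 fold change of -0.032 (95% interval -0.72 to 0.65, adjusted p = 0.94 from limma), an interval that leaves room for a moderate change in either direction. A rise in ST was called in 12489 genes, of which 5653 were also called as lower in MTST than in ST, and 3701 of those had no call in MTST against CK. *EjJAZ6* belonged to these 3701 genes. The comparisons share the ST libraries, so that the same libraries enter the rise and the fall.

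*EjJAZ5*, the abundant duplicate, had its highest mean in the controls. Its level was 170, 195 and 101 TPM in the CK libraries, 122, 112 and 91.0 TPM in the ST libraries, and 114, 119 and 63.2 TPM in the MTST libraries. CK replicate 3 lay far below the other CK libraries and within the range of ST, so that the groups overlapped. The means were 155 ± 48.7 TPM in CK, 108 ± 15.8 TPM in ST and 98.6 ± 30.8 TPM in MTST (SD, n = 3 each), from 409 to 1176 reads per library. On TPM, the log2 fold change of *EjJAZ5* was -0.48 for ST against CK (SE 0.27, 95% interval -1.08 to 0.13, adjusted p = 0.15 from limma). This value lies 0.88 below the median of all tested genes, and with median-of-ratios scaling the gene was downregulated (-0.92, adjusted p = 0.023 from limma). On that scale its CK libraries, at 118 to 227, lay above its ST libraries, at 77.6 to 101, which held for 27.3% of the tested genes in this direction. Fits without 1 library were run on TPM only, so this call was not checked for single libraries. On TPM the value moved with single CK libraries, to -0.76 without CK replicate 3 (adjusted p = 0.023 from limma) and to -0.29 without CK replicate 2 (adjusted p = 0.41), and 1 of the 9 fits without 1 library passed the test. With the replicate number as a block, the TPM value of -0.48 passed (adjusted p = 0.011 from limma), so the outcome depends on that choice.

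For MTST against CK, *EjJAZ5* had a log2 fold change of -0.65 on TPM (95% interval -1.26 to -0.042, adjusted p = 0.082 from limma), which did not pass the test. In this comparison 10.9% of the tested genes were downregulated and 29.7% upregulated. With median-of-ratios scaling, under which 18.7% were downregulated and 17.1% upregulated, *EjJAZ5* was lower in MTST than in CK (-0.86, adjusted p = 0.038 from limma), although its libraries overlapped. This call was likewise not checked by fits without 1 library. On TPM the value was -0.93 without CK replicate 3 (adjusted p = 0.014 from limma) and -0.36 without MTST replicate 3 (adjusted p = 0.29), and 1 of the 9 fits without 1 library passed the test. With the replicate number as a block, the TPM value of -0.65 passed as well (adjusted p = 0.0046 from limma). For MTST against ST, the log2 fold change of *EjJAZ5* was -0.18 on TPM (95% interval -0.79 to 0.43, adjusted p = 0.64) and 0.059 with median-of-ratios scaling (adjusted p = 0.90, both from limma). The direction of *EjJAZ5* in this comparison thus changed with the scaling, and neither value passed the test.

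*EjJAZ7*, the intermediate duplicate, passed the test in none of the 3 comparisons under either scaling. Its level was 26.5, 29.1 and 15.4 TPM in the CK libraries, 23.5, 29.8 and 20.1 TPM in the ST libraries, and 41.0, 28.6 and 22.8 TPM in the MTST libraries. The highest value was that of MTST replicate 1 and the lowest that of CK replicate 3, and all groups overlapped. The means were 23.7 ± 7.27 TPM in CK, 24.5 ± 4.93 TPM in ST and 30.8 ± 9.30 TPM in MTST (SD, n = 3 each), from 104 to 273 reads per library. For ST against CK its log2 fold change was 0.077 on TPM (95% interval -0.50 to 0.65, adjusted p = 0.81) and -0.36 with median-of-ratios scaling (adjusted p = 0.30, both from limma), so its sign changed with the scaling. For MTST against ST the values were 0.30 on TPM (95% interval -0.28 to 0.87, adjusted p = 0.39) and 0.52 with median-of-ratios scaling (adjusted p = 0.17, both from limma). For MTST against CK they were 0.37 (95% interval -0.20 to 0.95, adjusted p = 0.27) and 0.17 (adjusted p = 0.65, both from limma).

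**Figure D2:**
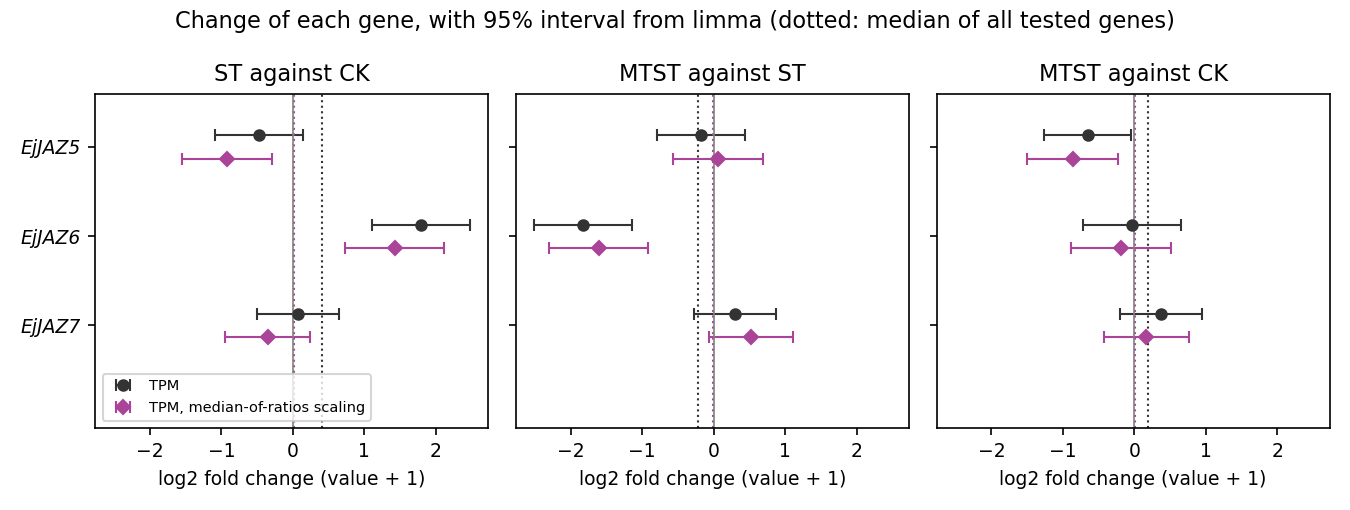
Log2 fold change of each of the 3 genes (horizontal axes, log2 of the value plus 1) in the 3 comparisons, with 95% intervals from limma, on TPM (dark circles) and with median-of-ratios scaling (purple diamonds), and with dotted lines at the median of all tested genes. *EjJAZ6* lies at 1.80 and 1.42 for ST against CK and at -1.83 and -1.61 for MTST against ST, while the intervals of *EjJAZ7* include 0 throughout.

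Whether the duplicates responded differently was tested on the difference of their log2(TPM + 1) values within each library, a quantity in which the scaling of a library nearly cancels. Under salt stress *EjJAZ6* gained on both of its duplicates. The level of *EjJAZ6* was 0.0218, 0.0123 and 0.0225 times that of *EjJAZ5* in the CK libraries, 0.110, 0.131 and 0.0964 times in the ST libraries, and 0.0381, 0.0260 and 0.0197 times in the MTST libraries. Relative to *EjJAZ7* it was 0.1402, 0.0824 and 0.147 times in CK, 0.571, 0.490 and 0.436 times in ST, and 0.106, 0.108 and 0.0546 times in MTST. In both pairs all ST libraries lay above all others. How common such a separation is among the other duplicate pairs was not counted.

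For ST against CK, the response of *EjJAZ6* exceeded that of *EjJAZ5* by 2.27 (95% interval 1.79 to 2.76, adjusted p = 2.4e-07 from limma) and that of *EjJAZ7* by 1.72 (95% interval 1.24 to 2.20, adjusted p = 4.4e-06 from limma) on the log2(TPM + 1) scale. For MTST against ST it was lower than that of *EjJAZ5* by a difference of -1.65 (adjusted p = 1.4e-05 from limma) and lower than that of *EjJAZ7* by -2.13 (adjusted p = 1.9e-06 from limma). For MTST against CK, *EjJAZ6* and *EjJAZ7* differed by -0.41 (95% interval -0.88 to 0.074, adjusted p = 0.13 from limma), which did not pass the test. *EjJAZ6* and *EjJAZ5* differed by 0.62 (95% interval 0.13 to 1.11, adjusted p = 0.028 from limma), and this call was lost without CK replicate 2 (0.36, adjusted p = 0.11), without MTST replicate 1 (0.48, adjusted p = 0.14) and with a pseudocount of 0.1 (0.57, adjusted p = 0.13). The p-values were adjusted over 16 pairs, the 15 duplicate pairs of the study and *EjJAZ6* with *EjJAZ7*, which share an estimate of the spread and, in part, the same genes.

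*EjJAZ7* and *EjJAZ5* had nearly the same ratio in the 3 control libraries. The level of *EjJAZ7* was 0.155, 0.149 and 0.153 times that of *EjJAZ5* in the CK libraries, although *EjJAZ5* itself ranged from 101 to 195 TPM there. *EjJAZ7* had 170, 186 and 104 reads in these libraries. How far counting error alone spreads the ratio was not tested, so this closeness is not read as a trait of the genes. The ratio was 0.193, 0.267 and 0.221 in the ST libraries and 0.360, 0.241 and 0.360 in the MTST libraries, so that all CK libraries lay below all others and those of ST and MTST overlapped. The share of other duplicate pairs that separate in this way was not counted. For ST against CK the response of *EjJAZ7* exceeded that of *EjJAZ5* by 0.55 (95% interval 0.13 to 0.97, adjusted p = 0.019 from limma), and without ST replicate 2 this was 0.43 (adjusted p = 0.086). For MTST against CK the difference was 1.03 (95% interval 0.61 to 1.44, adjusted p = 5.7e-04 from limma). For MTST against ST it was 0.47 (95% interval 0.055 to 0.89, adjusted p = 0.052 from limma), which did not pass the test. Of the 9 fits without 1 library, 3 passed it, those without MTST replicate 2 (0.66, adjusted p = 0.0073), ST replicate 2 (0.59, adjusted p = 0.032) and, with 0.47 and an adjusted p of 0.021, CK replicate 2. The others gave 0.36 (adjusted p = 0.19, without ST replicate 1) to 0.47 and did not pass, among them those without MTST replicate 1 (0.38, adjusted p = 0.21) and MTST replicate 3 (0.37, adjusted p = 0.20). In the fit without CK replicate 2, all pairs among the 3 genes had the same SE of 0.18. That pass thus rests on a spread pooled over the pairs, not on that of *EjJAZ7* and *EjJAZ5*.

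Differences within duplicate pairs were frequent in the family, since 68.8% of the 16 pairs passed the same test for ST against CK, 50.0% for MTST against ST and 56.2% for MTST against CK. The 16 pairs include those among these 3 genes, so the shares contain their own results. Those pairs all passed for ST against CK. *EjJAZ7* with *EjJAZ5* did not pass for MTST against ST, nor did *EjJAZ6* with *EjJAZ7* for MTST against CK. In the exact permutation test (two-sided, 3 against 3), the smallest possible p of 0.1 was reached by the differences among the 3 genes except for *EjJAZ7* and *EjJAZ5* in MTST against ST (exact p = 0.2) and *EjJAZ6* and *EjJAZ7* in MTST against CK (exact p = 0.3). Reads that fit more than 1 of these similar genes could have been divided among them or dropped, and the sources used here do not say which was done.

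**Figure D3:**
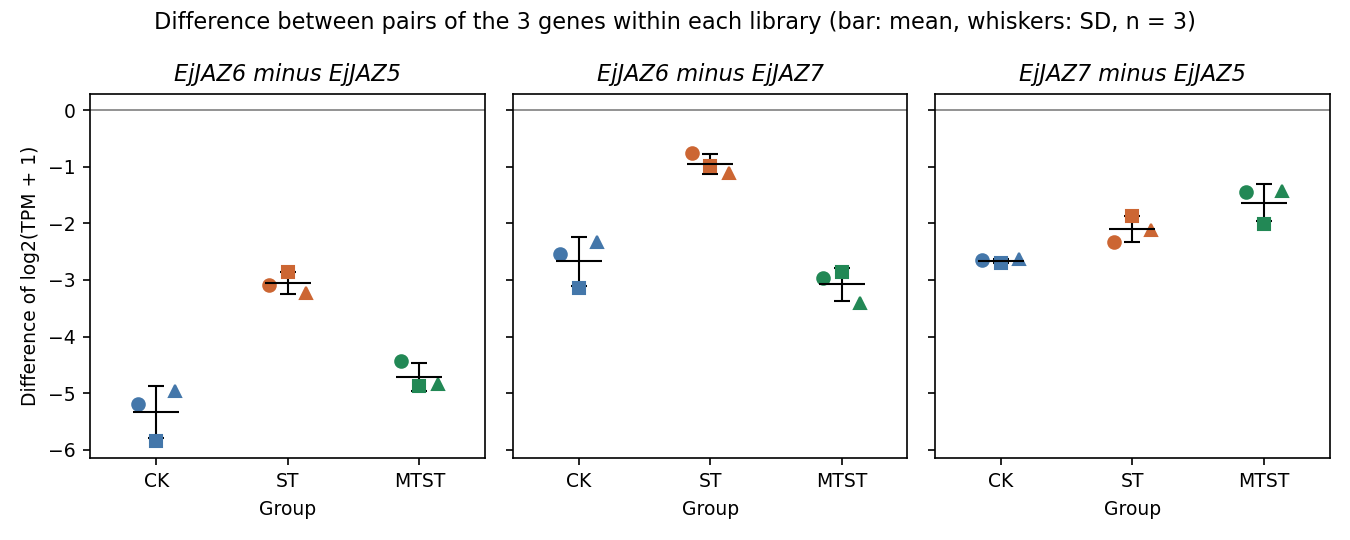
Difference of log2(TPM + 1) between pairs of the 3 genes within each library (vertical axis), with points for libraries, a bar for the mean and whiskers for the SD (n = 3). The differences of *EjJAZ6* from *EjJAZ5* and from *EjJAZ7* are least negative in ST, and that of *EjJAZ7* from *EjJAZ5* has an SD of 0.036 in CK, 0.23 in ST and 0.33 in MTST.

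Among the 16 *EjJAZ* genes, ordered by mean TPM, *EjJAZ5* ranked 3 in CK, 7 in ST and 5 in MTST. *EjJAZ7* ranked 12, 12 and 11, and *EjJAZ6* ranked 14 in each group. In CK, *EjJAZ5* stood below *EjJAZ14* (458 to 556 TPM) without overlap and overlapped with *EjJAZ11* (118 to 124 TPM), the next gene down. In ST it overlapped with its neighbours *EjJAZ8* (106 to 132 TPM) and *EjJAZ16* (61.4 to 116 TPM), and in MTST with *EjJAZ12* (85.4 to 106 TPM) and *EjJAZ16* (68.3 to 72.7 TPM). *EjJAZ6* overlapped in CK with its neighbours *EjJAZ4* (2.16 to 3.59 TPM) and *EjJAZ2* (1.25 to 2.93 TPM). In ST it separated from both, lying below *EjJAZ4* (17.2 to 27.1 TPM) and above *EjJAZ2* (0.238 to 1.42 TPM), and in MTST it lay below *EjJAZ4* (5.08 to 8.46 TPM) and overlapped with *EjJAZ2* (1.30 to 2.05 TPM). *EjJAZ7* stood apart from *EjJAZ3* and *EjJAZ4* in CK, overlapped with both in ST, and overlapped with *EjJAZ8* but not with *EjJAZ3* in MTST.

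**Figure D4:**
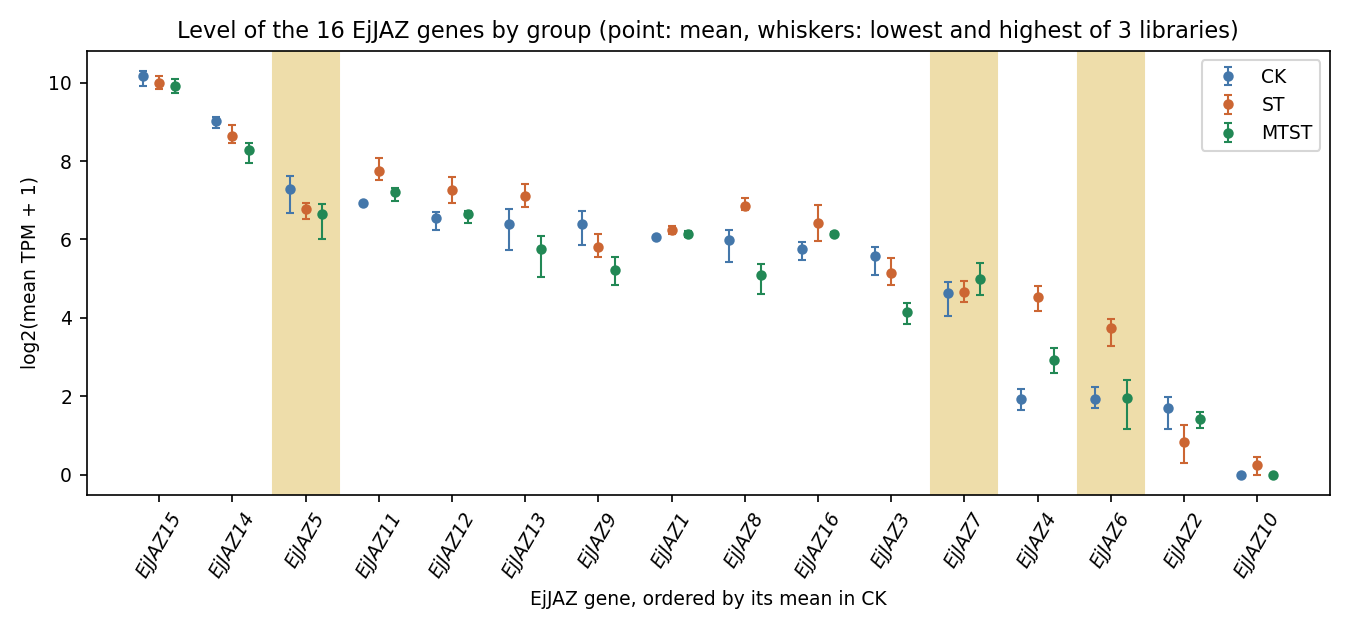
Level of the 16 *EjJAZ* genes as log2 of the mean TPM plus 1 (vertical axis), with genes ordered by their mean in CK and whiskers from the lowest to the highest of 3 libraries. The shaded genes are *EjJAZ5*, *EjJAZ7* and *EjJAZ6*, which rank 3, 12 and 14 in CK.

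Of the 15 tested *EjJAZ* genes, *EjJAZ6* had the second largest log2 fold change for ST against CK, after *EjJAZ4* (2.59), and the largest fall for MTST against ST, close to those of *EjJAZ8* (-1.79) and *EjJAZ4* (-1.61). Differences between *EjJAZ6* and these 2 genes were not tested. Of the 12 other tested *EjJAZ* genes, 5 were upregulated and 1 downregulated in ST against CK, 0 were upregulated and 6 downregulated in MTST against ST, and 1 was upregulated and 4 downregulated in MTST against CK (limma on TPM). Their median log2 fold changes were 0.39, -0.56 and -0.26, compared with 0.41, -0.22 and 0.19 for all tested genes. The shares over all tested genes on this scale were 52.8% up and 10.6% down in ST against CK, 7.90% and 29.8% in MTST against ST, and 29.7% and 10.9% in MTST against CK. With median-of-ratios scaling 1 of the 12 genes was upregulated and 6 were downregulated in ST against CK, 0 and 4 in MTST against ST, and 1 and 5 in MTST against CK, with medians of -0.055, -0.33 and -0.44. The shares of all tested genes after this scaling were 22.8% and 23.4%, 15.1% and 13.7%, and 17.1% and 18.7%. The 22 other tested *EjTIFY* genes had 11 upregulated and 3 downregulated in ST against CK, 0 and 6 in MTST against ST, and 5 and 4 in MTST against CK on TPM. With median-of-ratios scaling the counts of these 22 genes were 2 and 9, 3 and 4, and 2 and 7, so that in ST against CK upregulated genes were the larger number on TPM and downregulated genes the larger number after this scaling.

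The genes whose profiles over the 9 libraries were most like those of the 3 duplicates were found by the root mean square distance between log2(TPM + 1) profiles, each centred on its own mean. Nearest to *EjJAZ5* among the other tested *EjTIFY* genes were *EjJAZ14* (distance 0.227), *EjJAZ9* (0.280) and *EjJAZ15* (0.289), which were also 12, 58 and 79 in the order of all tested genes. Nearest to *EjJAZ6* were *EjJAZ8* (0.487), *EjJAZ13* (0.524) and *EjJAZ4* (0.590), at 232, 418 and 1025 in that order. Nearest to *EjJAZ7* were *EjTIFY1* (0.325), *EjJAZ15* (0.344) and *EjZML2* (0.355), at 816, 1535 and 2095. None of the 3 duplicates was among the 3 *EjTIFY* genes nearest to another of them, and *EjJAZ6* lay at a distance of 0.995 from *EjJAZ5*. The same *EjTIFY* genes were nearest with median-of-ratios scaling. Of all tested genes, the nearest were Ej00071731 for *EjJAZ5* (0.159, annotated with DNA-binding transcription factor activity), Ej00084311 for *EjJAZ6* (0.233, without a KEGG map or a GO molecular function) and Ej00029153 for *EjJAZ7* (0.180, annotated with DNA-binding transcription factor and histone demethylase terms). These 3 nearest genes were weak, at 1.32 to 6.38, 0.363 to 5.62 and 1.40 to 3.62 TPM in the same order. At such levels the log2(TPM + 1) scale understates changes, so a small distance need not mean an equal fold change. The distances are descriptions over 9 libraries.

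The jasmonate pathway around the 3 genes was described through lists taken from the deposited annotation, from which the 3 genes were left out. Since many genes changed in each comparison, the counts are read against the shares of all tested genes, which on TPM were 52.8% up and 10.6% down for ST against CK, 7.90% and 29.8% for MTST against ST, and 29.7% and 10.9% for MTST against CK, and with median-of-ratios scaling 22.8% and 23.4%, 15.1% and 13.7%, and 17.1% and 18.7%. Of the 26 tested genes of jasmonic acid biosynthesis, which makes the hormone that JAZ proteins respond to, 16 were upregulated and 2 downregulated in ST against CK, 0 were upregulated and 16 downregulated in MTST against ST, and 7 were upregulated and 7 downregulated in MTST against CK (limma on TPM). With median-of-ratios scaling the counts were 11 and 4, 0 and 14, and 7 and 9. The median log2 fold changes on TPM were 0.52, -0.64 and 0.054, beside 0.41, -0.22 and 0.19 for all tested genes. Of the 50 tested genes on the map of alpha-linolenic acid metabolism, which includes the precursors of jasmonic acid, 26 were upregulated and 7 downregulated in ST against CK, 5 and 23 in MTST against ST, and 15 and 11 in MTST against CK, and with median-of-ratios scaling 18 and 14, 6 and 17, and 14 and 16.

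The lists of signaling and response genes, which overlap with one another, had median log2 fold changes of 0.26 to 0.52 for ST against CK, -0.34 to -0.23 for MTST against ST and -0.058 to 0.20 for MTST against CK on TPM, beside 0.41, -0.22 and 0.19 for all tested genes. Their counts are likewise to be set against the 52.8% up and 10.6% down, 7.90% and 29.8%, and 29.7% and 10.9% of all tested genes on TPM, and nothing particular to these lists was tested. Other *EjTIFY* genes, already counted above, are annotated in most of these lists. There are 13 in regulation of jasmonic acid mediated signaling, 13 in the response to wounding and 13 in plant hormone signal transduction. The response to jasmonic acid holds 6, jasmonic acid mediated signaling 4 and the response to salt stress 0. Of the 41 other tested genes annotated with regulation of jasmonic acid mediated signaling, a term that the 3 genes carry, 20 were upregulated and 4 downregulated in ST against CK, 0 and 16 in MTST against ST, and 5 and 5 in MTST against CK on TPM, and with median-of-ratios scaling 10 and 16, 3 and 11, and 4 and 16. Of the 94 tested genes of jasmonic acid mediated signaling itself, a term the 3 genes do not carry, 57 were upregulated and 10 downregulated in ST against CK, 5 and 41 in MTST against ST, and 23 and 9 in MTST against CK, and with median-of-ratios scaling 28 and 22, 11 and 21, and 19 and 20. Of the 239 other tested genes of the response to wounding, the counts were 109 up and 52 down, 21 and 108, and 55 and 65 in the same order on TPM, and with median-of-ratios scaling 55 and 95, 39 and 57, and 36 and 83. Among 217 genes of the response to jasmonic acid they were 116 and 34, 13 and 89, and 59 and 39 on TPM, and with median-of-ratios scaling 63 and 67, 27 and 52, and 43 and 62. For 583 genes of the response to salt stress they were 338 and 52, 27 and 228, and 204 and 93 on TPM, and with median-of-ratios scaling 157 and 154, 68 and 92, and 113 and 144. On the map of plant hormone signal transduction, 255 tested genes gave 143 and 28, 17 and 81, and 80 and 26 on TPM, and with median-of-ratios scaling 75 and 57, 37 and 41, and 52 and 44.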

How the data were processed

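Leaf RNA was sequenced in 9 libraries, grouped by their labels. The FPKM values deposited by the authors came, per their methods, from reads cleaned with Trimmomatic and Trim-Galore, mapped with HISAT2 (also named in the submitters' processing notes) against the JFZ assembly of loquat and assigned to genes by Rsubread, with versions that the sources used here do not give. The deposited group averages and the authors' own DESeq2 comparisons (fold changes and p-values) were not used. FPKM was rescaled to TPM. Whole reads were recovered from FPKM for 31458 of the 31458 genes above 0 (gene lengths of 60 to 20000 bases searched, tolerance 1e-05 reads), with 99.979% to 99.984% of each library's total. At the median gene length of 1466 bases these depths give few reads to a gene near 1 TPM. Replicates differed by more than sampling noise (mean chi-square per gene 3.17 to 28.9), and the study calls them biological replicates for CK and ST. The study does not say this of MTST. In the main fits each p-value rests on a spread between libraries pooled over the 3 groups, so the MTST libraries enter every comparison.

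Limma 3.58.1 (R 4.3.3) was fitted to log2(TPM + 1) of 23641 genes with at least 1 TPM in at least 3 libraries, with all 9 libraries and the group as the only term, an empirical Bayes mean-variance trend and a Benjamini-Hochberg threshold of 0.05. The scale understates changes of weak genes. Differences within 16 pairs were fitted with limma, without a trend or a filter on low values, and with an exact permutation test. A simulated data set with known changes, balanced between up and down, was used to check the fit. It held no general shift between groups and the same fixed dispersion for all genes. It therefore does not test the fit under the shift and spread seen here. The alternatives were a pseudocount of 0.1, no filter, a filter at 5 TPM, FPKM, median-of-ratios factors, limma-voom on the recovered reads, a replicate block, no trend, only the 6 libraries compared, and each library left out. GO terms were matched by identifier. The named genes were the 3 duplicates, the 3 *EjTIFY* genes and the single gene most like each, and *EjTIFY* genes that neighbour them. *EjJAZ4* and *EjJAZ8* were also named beside *EjJAZ6* after their changes were seen. The members, lists and pairs were chosen with earlier results of these data known. Python 3.11.15, numpy 2.4.6, pandas 2.3.3, scipy 1.17.1 and matplotlib 3.10.9 were used.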

Additional observations from a re-analysis of the deposited data

How the results depend on the processing

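The calls of *EjJAZ6* for ST against CK and for MTST against ST were made in each of the 9 fits without 1 library (1.67 to 2.004, adjusted p of 2.2e-04 to 0.0029, and -2.10 to -1.48, adjusted p of 0.0022 to 0.0073) and under each of the 10 other settings (1.42 to 2.10 and -2.18 to -1.61, limma). With median-of-ratios factors on TPM or with limma-voom on the recovered reads, *EjJAZ5* had -0.92 and -0.93 for ST against CK, 0.059 and 0.056 for MTST against ST, and -0.86 and -0.87 for MTST against CK, and *EjJAZ7* had -0.36 and -0.37 for ST against CK. Under these 2 settings 5383 and 5170 genes were upregulated and 5538 and 5539 downregulated for ST against CK, 3559 and 3627 upregulated and 3227 and 3403 downregulated for MTST against ST, and 4037 and 3659 upregulated and 4430 and 4452 downregulated for MTST against CK. On TPM the counts were 12489 and 2504, 1867 and 7045, and 7010 and 2573. Limma-voom with library totals in place of these factors gave *EjJAZ5* -0.55 for ST against CK (adjusted p = 0.095). It gave *EjJAZ5* -0.098 for MTST against ST and -0.65 for MTST against CK (adjusted p = 0.073). For ST against CK it gave *EjJAZ7* 0.0075, with 11140 genes upregulated and 2815 downregulated. Leaving out 1 library gave *EjJAZ5* -0.76 to -0.29, -0.34 to 0.11 and -0.93 to -0.36 in the 3 comparisons, *EjJAZ7* -0.19 to 0.25 for ST against CK, and *EjJAZ6* -0.31 to 0.32 for MTST against CK. Within pairs it gave 0.43 to 0.66 for *EjJAZ7* minus *EjJAZ5* in ST against CK and 0.36 to 0.66 in MTST against ST, and 0.36 to 0.80 for *EjJAZ6* minus *EjJAZ5* and -0.64 to -0.23 for *EjJAZ6* minus *EjJAZ7* in MTST against CK. The difference of *EjJAZ7* from *EjJAZ5* in MTST against ST passed the test with the filter at 5 TPM (0.47, adjusted p = 0.024) and with FPKM (0.46, adjusted p = 0.046). That of *EjJAZ6* from *EjJAZ5* in MTST against CK did not pass with a pseudocount of 0.1 (0.57), with log2 of the recovered reads as a share of the library (0.57) or with only the 6 libraries compared (0.62, adjusted p = 0.063). The cause was not tested. Same-numbered libraries correlated at -0.15 to 0.083 in their deviations from the group means, so the numbers were not taken to pair the samples. In these 3 genes, however, replicate 3 was the lowest in every group, and the calls of *EjJAZ5* depended on the block. With the replicate number as a block, *EjJAZ5* had -0.48 for ST against CK (adjusted p = 0.011) and -0.65 for MTST against CK (adjusted p = 0.0046), and *EjJAZ7* minus *EjJAZ5* had 0.47 for MTST against ST (adjusted p = 0.046, limma). In the block fit of the pairs, all pairs among the 3 genes had the same SE of 0.21, a spread pooled over the pairs. For the pairs, the main fit already had no filter on low values and no trend, and the settings with limma-voom and with median-of-ratios factors on recovered reads were not run. Depth limits *EjJAZ6* most, with 5 to 17 reads in each CK and MTST library.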

Other observations

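Replicate 3 had the lowest TPM of *EjJAZ5*, of *EjJAZ6* and of *EjJAZ7* in CK, in ST and in MTST alike. This pattern was noticed after the values had been seen. It was shared by 7 of the 15 tested *EjJAZ* genes and by 610 of the 23641 tested genes (2.58%). Replicate 1 was the lowest in all groups for 760 genes and replicate 2 for 1343 genes, and neither count includes an *EjJAZ* gene. The replicate numbers come from the sample labels, which do not say whether a number marks a shared day, tray or extraction, and the part of such a factor in the pattern was not tested.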
